A study of Homo sapiens with 12 samples.

Results

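K562 cells, an established human line from the blast crisis of a chronic myeloid leukaemia, were treated for 24 h with imatinib at 0.5 µM, which the labels give as the IC50 dose, or with DMSO as the control. Imatinib, also called STI571, is a small-molecule inhibitor of the ABL kinase, and K562 cells carry the BCR-ABL1 fusion. The comparison described here used the 4 arrays whose titles name imatinib and the 4 whose titles name DMSO, which is 8 of the 12 arrays of the study. Both groups were the same cell line in RPMI medium with serum and antibiotics, and total RNA was hybridised to Affymetrix human expression arrays. Nothing in the labels says whether each array had its own culture. The p-values therefore reflect the spread among these arrays alone, which may be technical.

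BCR-ABL1 is a constitutively active tyrosine kinase. Through adaptors such as GRB2, GAB2 and CRKL it feeds the RAS-ERK cascade and the PI3K-AKT pathway, and it phosphorylates STAT5, so that early response genes, survival genes and MYC are kept on and FOXO factors are kept out of the nucleus. K562 cells can also make haemoglobin and other red cell proteins, and with DMSO some of those genes were already bright and others dim. The genes below are ordered along that path, from the kinases to the transcription factors, then biosynthesis, the cell cycle and the red cell genes.

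Each value is a signal, a probe set's brightness on a linear scale, and each difference is imatinib minus DMSO on the scale of log2(signal + 16), which understates the change of dim genes. Of 22215 probe sets tested, 2725 were higher and 2168 lower with imatinib at a limma adjusted p under 0.05 (Benjamini-Hochberg), and this is what rose, fell and called mean throughout. Taking for each gene the brightest probe set that names it alone left 11963 genes, of which 1722 rose (14.4%) and 1399 fell (11.7%). Of the 7985 genes at or above the 40th percentile of signal, 19.5% rose and 17.1% fell, shares to set beside the group counts below. The median difference over all genes was 0.13, and the median standard error (SE) of a difference was 0.20. A difference of at least 1 was seen in 476 of the genes that rose and 269 of those that fell. The 4 imatinib arrays lay wholly above or wholly below the 4 DMSO arrays in 3497 genes (29.2%).

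**Figure D1:**
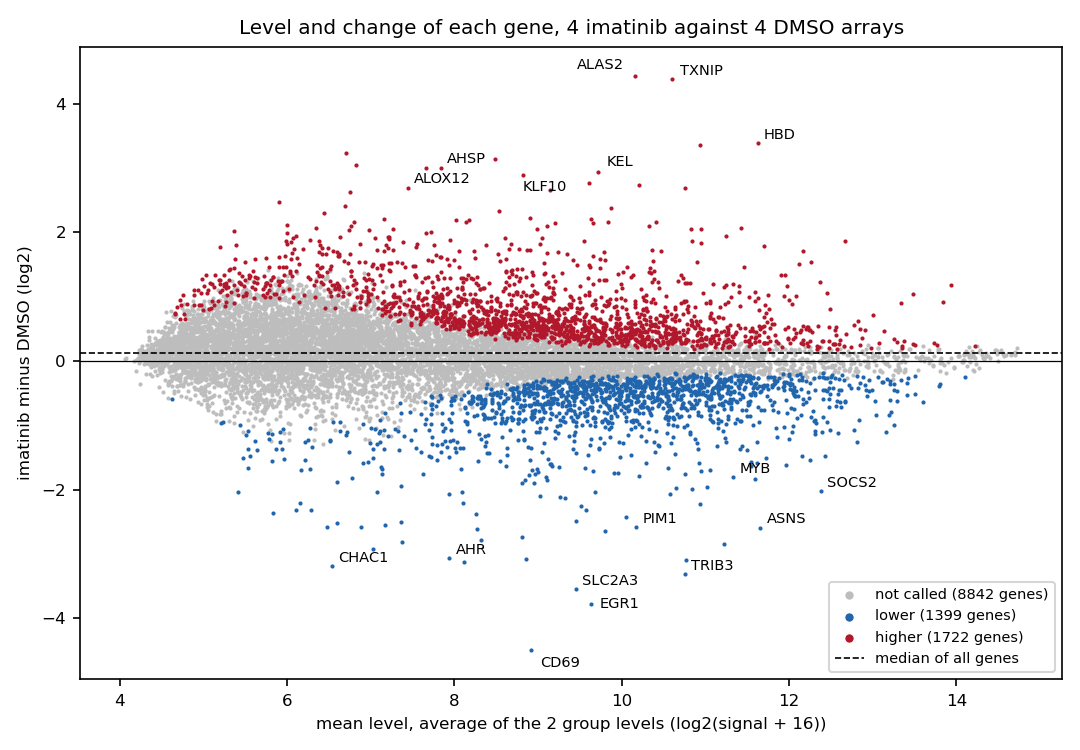
Each point is a gene. The horizontal axis gives its mean level and the vertical axis its difference, imatinib minus DMSO, both on the log2(signal + 16) scale, with 1722 genes called higher in red, 1399 called lower in blue and the dashed line at the median of all genes, 0.13. ALAS2 and TXNIP lie highest and CD69 and EGR1 lowest. Of the 3978 genes below the 40th percentile of signal, at the left, 166 were called higher and 35 lower.

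Arrays of a group correlated at 0.967 to 0.973 for DMSO and 0.957 to 0.963 for imatinib (Pearson r over all probe sets). The median signal of an array was 119.2 ± 2.15 (SD, n = 4) with DMSO and 142.3 ± 8.72 with imatinib, and the 28S ribosomal RNA control probe set read 5431 ± 135 and 20453 ± 1241. Neither measure overlapped between the groups (two-sided exact permutation test p = 0.0286 for each, the smallest that 4 arrays against 4 allow). When the arrays were instead centred on their medians, the median difference moved from 0.13 to -0.10 and the calls from 1722 higher and 1399 lower to 775 and 2309. The share of calls that were higher moved from 55.2% to 25.1%, so a group of genes whose median lies near 0 has no settled direction. The part of these array differences in the small gene changes was not tested. The 3'/5' actin ratio, a measure of RNA integrity, was above 5 on imatinib replicates 5 and 6 (5.23 and 5.24) and at most 3.34 on every other array. Without those 2 arrays 1433 genes were higher and 1341 lower.

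Defining markers of the labelled cell line were bright. The embryonic globin genes HBE1 and HBZ had mean signals of 10694 and 10394 with DMSO, and TFRC, the transferrin receptor, of 16817. Markers of other lineages were mostly dim: the median signal was below 100 with DMSO in 13 of 16 megakaryocyte, 14 of 17 granulocyte and monocyte, 8 of 13 lymphocyte and 6 of 11 fibroblast markers. The summed megakaryocyte signal was 1183 to 1345 on the DMSO arrays and 2202 to 2452 on the imatinib arrays. The other sums were 4171 to 4684 and 3583 to 4222 for granulocyte and monocyte markers, 2744 to 2951 and 2445 to 2546 for lymphocyte markers, and 2148 to 2719 and 1819 to 2077 for fibroblast markers. Of the 16 megakaryocyte markers 3 rose (18.8%, against 14.4% of all genes) and 0 fell (0 at an unadjusted p under 0.05). Among them CD9, a tetraspanin with a mean signal of 323 ± 55 with DMSO and 1072 ± 148 with imatinib, rose by 1.69, and TUBB1, the platelet beta-tubulin, rose from 17.1 ± 4.17 to 128 ± 85.3. Much of the rise in the summed megakaryocyte signal was that of CD9. The defining platelet markers were not called: ITGA2B differed by 0.44, GP9 by 0.00, PF4 by -0.16 and PPBP by -0.53. The part of other cell types in the results below was not tested. In bulk RNA, fewer cells of a kind and less RNA per cell cannot be told apart.

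Of 10 measured genes for proteins that imatinib binds, 3 rose and 1 fell, and after median centring 1 rose and 1 fell. NQO2, a quinone oxidoreductase that binds imatinib, had signals of 2653, 2716, 2683 and 2594 on the DMSO arrays and 837, 914, 787 and 792 on the imatinib arrays. Its groups did not overlap, and it fell by 1.66 (SE 0.07, adjusted p = 3.45e-09). ABL1 read 1822 ± 116 with DMSO and 2311 ± 191 with imatinib, a rise of 0.34 (adjusted p = 0.00557) that was not called when arrays were centred on their medians or when no variance trend was fitted. BCR, the fusion partner, differed by 0.39 with overlapping arrays (adjusted p = 0.0512), KIT by 0.06 (adjusted p = 0.78) and the adaptor gene CRKL by -0.07 (adjusted p = 0.61). GAB2, the scaffold that links BCR-ABL1 to PI3K, fell by 1.37 (SE 0.14, adjusted p = 1.37e-05), from 999 to 1161 on the DMSO arrays to 327 to 540 on the imatinib arrays.

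SRC family kinases changed in opposite directions. LYN had signals of 2333, 2216, 2268 and 2327 with DMSO and 1186, 1227, 1072 and 1047 with imatinib, and all 3 of its probe sets fell. FYN had 1245, 1185, 1267 and 1277 with DMSO and 2690, 2428, 2211 and 2277 with imatinib, and all 3 of its probe sets rose. The differences were -1.0 (SE 0.07, adjusted p = 3.76e-07) and 0.94 (SE 0.07, adjusted p = 1.11e-06), and neither gene's groups overlapped. YES1 fell by 0.98 at its brightest probe set, which was not called when a gene's probe sets were averaged. SRC and FGR differed by -0.07 and 0.02 and were not called.

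STAT5 drives transcription of its own inhibitors, of PIM kinases and of survival genes. In that group 9 of 19 measured genes fell and 0 rose (1 at an unadjusted p under 0.05), with a median of -0.30 against 0.13 over all genes. CISH, a cytokine-inducible inhibitor of STAT5 signalling, is shown here because the RefSeq window before its start holds several STAT-type motifs. The motif searched was TTCNNNGAA, which reads the same on both strands, in the 250 bases before each start. It occurred 4 times in CISH, at chr3:50611872-50612021 on the minus strand of GRCh38.p14 (capitals mark the matches).
CISH: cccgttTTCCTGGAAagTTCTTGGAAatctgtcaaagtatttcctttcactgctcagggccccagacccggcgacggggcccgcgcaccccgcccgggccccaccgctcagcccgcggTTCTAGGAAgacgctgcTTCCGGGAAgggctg
This stretch runs from 247 to 98 bases before the start. CISH was the 1 gene with a match among the 14 members of the group that had a window, and 8.09% of all genes with a window had a match.

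CISH had signals of 906, 1065, 1064 and 866 on the DMSO arrays and 305, 293, 336 and 305 on the imatinib arrays, a difference of -1.6 (SE 0.10, adjusted p = 1.67e-07). SOCS2, another feedback inhibitor, was among the brightest genes to fall, with 10205, 11338, 10888 and 10392 against 2784, 2821, 2422 and 2477. SOCS1 fell by 2.11 (SE 0.17, adjusted p = 1.64e-06) and SOCS2 by 2.02 (SE 0.07, adjusted p = 1.21e-09). The groups did not overlap for any of these inhibitors.

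PIM1, a serine/threonine survival kinase, had signals of 2787, 2939, 2835 and 2654 with DMSO and 381, 416, 584 and 453 with imatinib, a difference of -2.59 (SE 0.11, adjusted p = 5.05e-09). PIM2 fell by 1.28 (SE 0.09, adjusted p = 4.43e-07). Cyclin D2, encoded by CCND2, fell by 1.83 (SE 0.08, adjusted p = 5.05e-09), from a mean signal of 5800 ± 334 to 1620 ± 166. BCL2L1, which encodes the survival protein BCL-xL, fell by 0.93 (SE 0.09) and MCL1 by 0.48 (SE 0.06). The transcription factors themselves did not pass the test: STAT5A differed by -0.15 (adjusted p = 0.546) and STAT5B by 0.18 (adjusted p = 0.118).

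**Figure D2:**
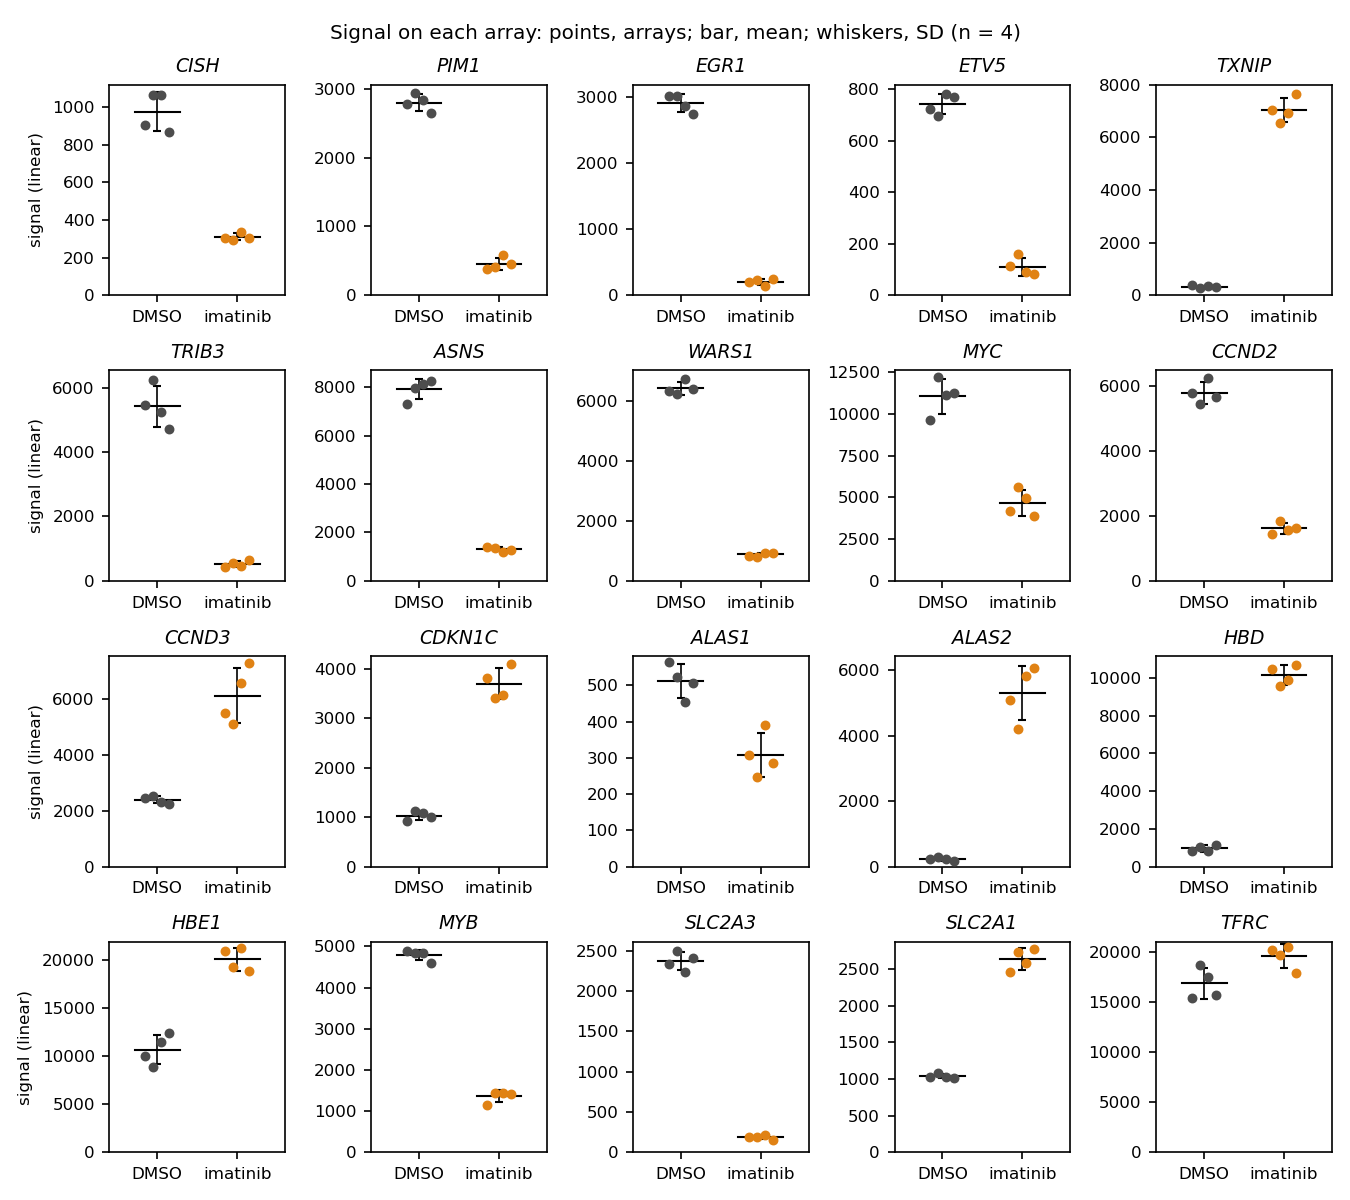
Signal (linear scale, axes from 0) of 20 genes on each of the 4 DMSO and 4 imatinib arrays; points are arrays, horizontal bars means and whiskers SD (n = 4). The groups are separate in every panel except TFRC, and CCND2 with CCND3, ALAS1 with ALAS2 and SLC2A3 with SLC2A1 are pairs of related genes that changed in opposite directions.

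Early response genes, which growth factor signalling switches on within minutes, held the largest fall of any gene. CD69, a lectin of activated blood cells, had signals of 2390, 2113, 2299 and 2285 with DMSO and 113, 58.4, 84.6 and 91.8 with imatinib. EGR1, a zinc finger factor induced through ERK, had 3015, 3007, 2862 and 2731 against 196, 236, 136 and 238. They fell by 4.50 (SE 0.15, adjusted p = 1e-09) and 3.78 (SE 0.14, adjusted p = 1.95e-09), and both probe sets of EGR1 fell. MAFF, a small MAF factor, fell by 2.50 and IER3 by 1.55. KLF10, a repressor known as an early target of TGF-beta, rose by 2.77 (SE 0.10, adjusted p = 1.93e-09), with 316, 278, 311 and 233 against 2220, 1995, 1923 and 1941. Of the 23 measured genes of the group 7 fell and 4 rose, or 8 and 2 after median centring, and FOS (-0.38), FOSB (0.44) and JUNB (-0.13) were not called.

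Of 20 measured feedback genes of the ERK cascade 5 fell and 1 rose, against 8 and 1 after median centring. ETV5, an ETS factor, had signals of 725, 697, 783 and 768 with DMSO and 113, 160, 88.3 and 82.4 with imatinib. All 3 of its probe sets fell, and its difference was -2.62 (SE 0.18, adjusted p = 3.67e-07). SPRY4 and SPRY2, which encode Sprouty inhibitors of RAS-ERK signalling, fell by 1.25 (SE 0.16) and 0.93 (SE 0.13). DUSP6, the ERK phosphatase, was dim in both groups (40.2 ± 14 and 39.9 ± 21.7) and was not called. DUSP1, a phosphatase of several MAP kinases, was the 1 gene to rise, by 1.03 (SE 0.17, adjusted p = 0.000864), a call lost when its 2 probe sets were averaged.

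In the PI3K and mTOR group the largest change was in a regulator. DDIT4, an inhibitor of the mTOR complex, had signals of 5164, 5008, 5095 and 4932 with DMSO and 512, 569, 717 and 535 with imatinib, a difference of -3.09 (SE 0.09, adjusted p = 5.23e-10). EIF4EBP1, the repressor of cap-dependent translation, fell by 1.58 (SE 0.08, adjusted p = 3.37e-08), from 2157 ± 67.2 to 711 ± 78.3. Among the kinases PIK3CB, a catalytic subunit of PI3K, fell by 0.95 (SE 0.07, adjusted p = 5.22e-07), a call lost when its 2 probe sets were averaged. AKT1 (0.16), AKT2 (0.41), MTOR (0.00) and PDPK1 (0.11) were not called. Over the 22 measured genes 5 fell and 3 rose, against 8 and 1 after median centring.

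FOXO factors are held in check by AKT, and 11 of 21 measured factors and targets rose and 1 fell, with a median of 0.46; after median centring 6 rose and 3 fell, and without the 2 arrays of high actin ratio 8 rose and 2 fell. Both TXNIP and SELENOP are shown because they had the largest rises of the group and hold the FOXO-type motif GTAAACA, searched on both strands of the 250 bases before the start (capitals). They lie at chr1:145996671-145996729 and chr5:42811905-42811963, both on the minus strand of GRCh38.p14.
TXNIP: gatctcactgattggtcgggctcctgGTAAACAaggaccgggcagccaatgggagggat
SELENOP: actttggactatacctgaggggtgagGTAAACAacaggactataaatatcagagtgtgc
The motif was found in 4 of the 19 members with a window, in 3 of the 11 called members, and in 3.66% of all genes.

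TXNIP, which inhibits thioredoxin and limits glucose uptake, had signals of 369, 290, 347 and 292 on the DMSO arrays and 7057, 6544, 6936 and 7642 on the imatinib arrays. Its difference was 4.38 (SE 0.09, adjusted p = 2.66e-11), about 20.8-fold on the log2(signal + 16) scale, and all 3 of its probe sets rose. SELENOP, the plasma carrier of selenium, rose by 1.71 (SE 0.10, adjusted p = 1.07e-07). CAT, the peroxide-removing enzyme catalase, rose from 2870 ± 87.3 to 8356 ± 538, a difference of 1.53 (SE 0.06, adjusted p = 3.75e-09). FOXO3 itself rose by 0.77 (SE 0.10, adjusted p = 0.000132), while BCL2L11, the death gene encoding BIM, differed by 0.33 with overlapping arrays (adjusted p = 0.225).

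ATF4 is a transcription factor whose translation rises when amino acids run short or proteins misfold, and it switches on amino acid synthesis, uptake and tRNA charging. Its group had the lowest median of the 61 groups examined, -1.55, with 14 of 22 measured genes lower and 3 higher; after median centring 14 were lower and 0 higher. Short stretches before 5 genes are shown because they carry the composite ATF4 and CEBP motif TGATGNAA (capitals, either strand). They lie in GRCh38.p14 at chr7:97872443-97872502 (ASNS, minus strand), chr15:40953236-40953295 (CHAC1, plus), chr19:33374045-33374104 (CEBPG, plus), chr12:24949116-24949175 (BCAT1, minus) and chr16:70289660-70289719 (AARS1, minus), from the RefSeq promoter windows.
ASNS: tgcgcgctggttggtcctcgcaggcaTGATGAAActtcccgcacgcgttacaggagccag
CHAC1: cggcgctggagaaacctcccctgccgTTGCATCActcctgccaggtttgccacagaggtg
CEBPG: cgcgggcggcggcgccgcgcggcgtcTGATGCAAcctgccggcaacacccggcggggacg
BCAT1: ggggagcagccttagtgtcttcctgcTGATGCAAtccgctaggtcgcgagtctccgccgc
AARS1: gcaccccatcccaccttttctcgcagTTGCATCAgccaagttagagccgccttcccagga
The motif begins 68 bases before the start of ASNS, 209 before CHAC1, 42 before CEBPG, 48 before BCAT1 and 187 before AARS1. It was found in 4 of 19 genes of the ATF4 group with a window, 3 of 18 serine and folate enzymes, 2 of 18 amino acid transporters and 3 of 14 cytosolic tRNA synthetases, and in 3.89% of all genes.

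TRIB3, a pseudokinase induced by ATF4, had signals of 5456, 6247, 5244 and 4706 with DMSO and 446, 558, 472 and 662 with imatinib. CHAC1, which breaks down glutathione, had 224, 344, 271 and 225 against 10.3, 16.9, 16.4 and 15, values close to the 16 added before the log. The differences were -3.31 (SE 0.12, adjusted p = 1.65e-09) and -3.19 (SE 0.28, adjusted p = 3.89e-06). CTH, which makes cysteine, fell by 2.64 (SE 0.12) and the factor ATF5 by 2.49 (SE 0.12). DDIT3, which encodes the stress factor CHOP, fell by 1.71 (SE 0.09), and CEBPG, a dimer partner of ATF4, by 1.69 (SE 0.13). ATF4 fell by 1.11 (SE 0.07, adjusted p = 1.11e-07), from 7926 ± 554 to 3666 ± 150. Among genes of kinases that act above ATF4, EIF2AK3, EIF2AK1 and EIF2AK2 did not fall. EIF2AK3 differed by 0.03, and EIF2AK1, the heme-regulated kinase, and EIF2AK2 rose by 0.49 and 0.31. Median centring and several other alternatives removed both calls, and the arrays of EIF2AK1 overlapped.

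The enzymes of serine, glycine and folate metabolism followed, with 15 of 24 measured genes lower, 1 higher and a median of -0.45. ASNS, asparagine synthetase, had signals of 7320, 7971, 8133 and 8257 with DMSO and 1385, 1354, 1201 and 1271 with imatinib, a difference of -2.59 (SE 0.07, adjusted p = 2.03e-10). All 3 steps of serine synthesis were lower, PHGDH with a difference of -2.26, PSAT1 with -2.21 and PSPH with -1.32. In mitochondria SHMT2 fell by 1.37 and MTHFD2 by 1.53, and their cytosolic counterparts SHMT1 (0.10, not called) and MTHFD1 (-0.33) differed less. OAT, ornithine aminotransferase, was the 1 gene to rise, from 7973 ± 137 to 16386 ± 1259.

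Amino acid transporters fell in 9 of 21 measured genes and rose in 3, with a median of 0.00. SLC7A5, the leucine exchanger LAT1, had signals of 4043, 4483, 4120 and 4052 with DMSO and 577, 1026, 911 and 1112 with imatinib, and it fell by 2.22 (SE 0.16, adjusted p = 4.53e-07). SLC38A1, which takes up glutamine, fell by 1.85 (SE 0.12) and SLC7A11, the cystine importer, by 1.69 (SE 0.10). SLC36A1, which carries amino acids out of the lysosome, rose by 1.46 (SE 0.24, adjusted p = 0.00056).

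Cytosolic tRNA synthetases, which load amino acids onto tRNA, fell in 14 of 17 measured genes and rose in 0 (0 at an unadjusted p under 0.05), with a median of -0.96. Without the 2 arrays of high actin ratio 12 were lower. VARS1, for valine, fell by 0.67 at its brightest probe set, but its sign was opposite when its probe sets were averaged. WARS1, for tryptophan, had signals of 6311, 6222, 6718 and 6396 with DMSO and 841, 811, 934 and 935 with imatinib, a difference of -2.85 (SE 0.07, adjusted p = 8.71e-11). YARS1, for tyrosine, fell by 1.96 (SE 0.10), CARS1, for cysteine, by 1.5, GARS1, for glycine, by 1.47 and AARS1, for alanine, by 1.08. EPRS1, for glutamate and proline, differed by 0.10 and was not called at its brightest probe set, while 1 of its 3 probe sets fell. Of the 10 measured synthetases of mitochondria 3 fell and 0 rose (0 at an unadjusted p under 0.05), with a median of -0.08 and a lowest value of -0.72 in NARS2. LARS2 and IARS2 were the other 2 that fell, and without the 2 arrays of high actin ratio 1 synthetase of mitochondria was lower.

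Sensors and chaperones of the endoplasmic reticulum fell in 9 of 24 measured genes and rose in 3, or fell in 12 and rose in 0 after median centring. XBP1, the splicing-activated factor of the unfolded protein response, fell by 1.49 (SE 0.09, adjusted p = 7.08e-08), HERPUD1 by 1.41 (SE 0.08) and the chaperone gene HSPA5 by 0.93 (SE 0.06). PDIA3 (-0.06), PDIA6 (-0.04) and CANX (-0.10), abundant folding proteins, were not called.

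**Figure D3:**
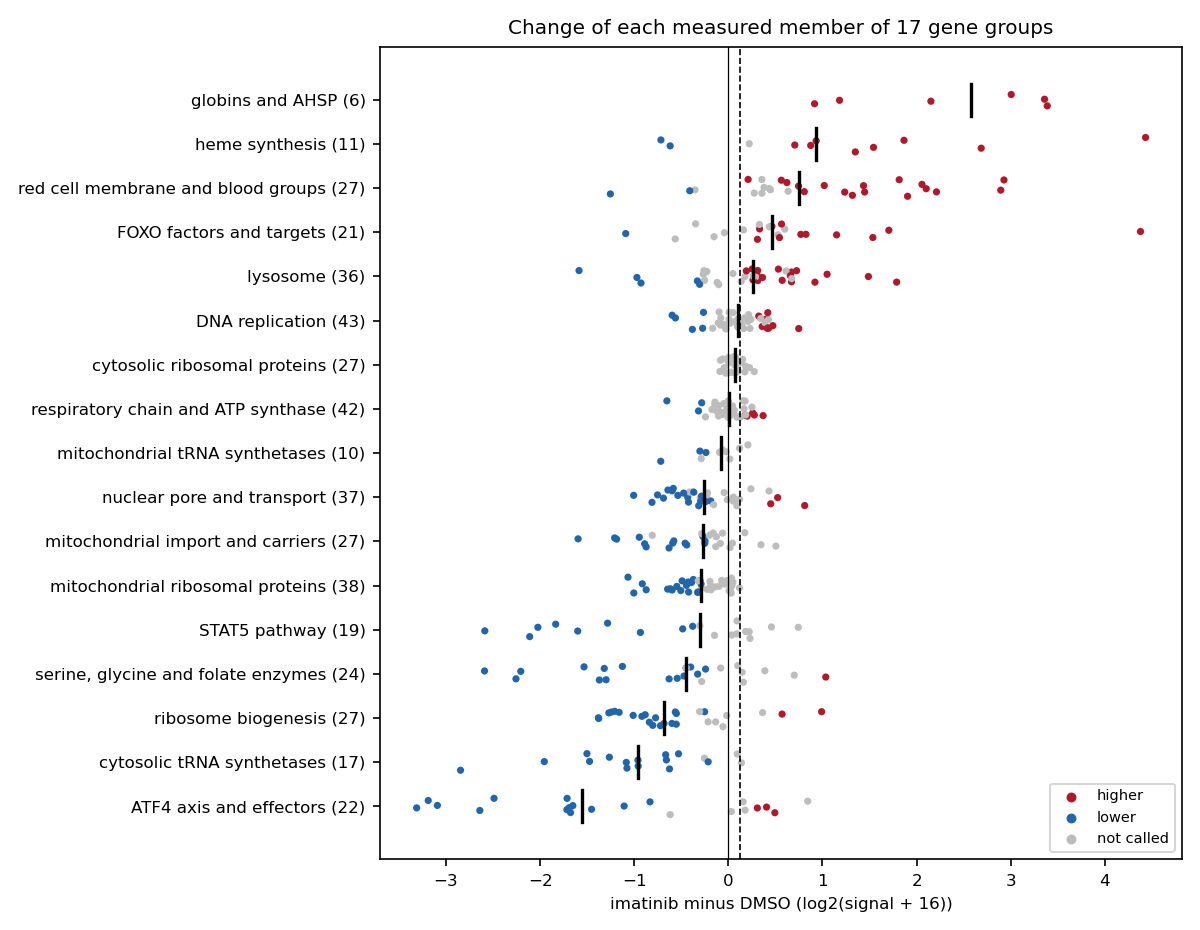
Each point is a measured member of 1 of 17 gene groups, placed by its difference, imatinib minus DMSO (log2(signal + 16)); red and blue points were called higher and lower, grey points were not called, short black bars are group medians and the dashed line is the median of all genes. Globins lie farthest right (median 2.58) and the ATF4 group farthest left (-1.55), and cytosolic ribosomal proteins are grey and narrow while ribosome biogenesis genes are mostly blue.

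MYC, the growth regulator, had signals of 9647, 12209, 11162 and 11234 with DMSO and 4203, 5634, 4960 and 3864 with imatinib, a difference of -1.25 (SE 0.11, adjusted p = 3.89e-06). MXD3, which competes with MYC for its partner MAX, rose by 1.52 (SE 0.37, adjusted p = 0.00893) from 84.8 ± 45.4 to 260 ± 81.0. In polyamine synthesis, a pathway fed by MYC, 9 of 17 genes fell and 2 rose, or 9 and 1 after median centring. ODC1, the first enzyme, had 7893, 8470, 8604 and 8352 against 4156, 4097, 3614 and 3924 and fell by 1.07 (SE 0.06, adjusted p = 1.07e-07). ARG2, which makes ornithine, fell by 1.85 (SE 0.10), MAT2A, which makes the methyl and aminopropyl donor, by 1.48 (SE 0.08), and AMD1, which commits that donor to polyamines, by 1.12. SAT1, the breakdown enzyme, rose by 1.01 (SE 0.09) at all 3 of its probe sets.

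Genes that build ribosomes fell and genes that encode the ribosome's proteins were not called. Of 27 measured biogenesis genes 19 fell and 2 rose (median -0.68). NOLC1, a nucleolar phosphoprotein, had signals of 4476, 4720, 4804 and 4503 with DMSO and 1672, 2122, 1708 and 1607 with imatinib. It fell by 1.38 (SE 0.08, adjusted p = 1.16e-07) at all 3 probe sets, and the RNA helicase genes DDX10 and DDX21 fell by 1.38 and 1.21. Of 27 measured cytosolic ribosomal proteins 0 were called by limma (3 higher and 0 lower at an unadjusted p under 0.05), with differences from -0.09 to 0.28 and a median of 0.07. After median centring 4 ribosomal protein genes and 21 biogenesis genes were lower. NPM1, an abundant nucleolar protein, differed by -0.02 and was not called at its brightest probe set, though its other 2 probe sets fell.

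Other groups that serve protein synthesis and transport also had more falls than rises. Translation initiation factors fell in 14 of 28 measured genes and rose in 1, or 12 and 3 with quantile normalization, with EIF3J lowest at -0.90 (SE 0.07, adjusted p = 1.55e-06). Mitochondrial ribosomal proteins fell in 19 of 38 and rose in 0 (0 at an unadjusted p under 0.05), with a median of -0.30 and MRPS2 lowest at -1.07. Without the 2 arrays of high actin ratio 15 of these 38 were lower. Mitochondrial import factors and carriers fell in 14 of 27 and rose in 0 (2 at an unadjusted p under 0.05), among them HSPA9, the matrix chaperone that pulls proteins in, from 5567 ± 124 to 2451 ± 317. Nuclear pore and transport genes fell in 19 of 37 and rose in 3, and XPOT, the exporter of tRNA, was lowest at -1.01 (SE 0.09, adjusted p = 5.46e-06). The respiratory chain had a median of 0.01, with 5 genes higher and 3 lower of 42; after median centring 0 were higher and 19 lower, and with quantile normalization 10 and 3.

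Nucleotide synthesis fell in 13 of 28 measured genes and rose in 3, or fell in 18 and rose in 1 after median centring and fell in 13 and rose in 5 with quantile normalization. PFAS and GART, enzymes of purine synthesis, fell by 0.94 and 0.93. RRM2, the subunit of ribonucleotide reductase that is made in S phase, had signals of 2343, 2125, 2268 and 2254 with DMSO and 4199, 4801, 4178 and 4547 with imatinib. Its groups did not overlap, both its probe sets rose, and its difference was 0.97 (SE 0.06, adjusted p = 3.12e-07).

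D-type cyclins, which carry cells through G1, changed in opposite directions. CCND2, given above, fell by 1.83. CCND3 had signals of 2441, 2535, 2313 and 2251 with DMSO and 5500, 5103, 6552 and 7266 with imatinib, a rise of 1.34 (SE 0.10, adjusted p = 7.73e-07). CCND1 was dim, at 162 ± 15.3 and 37 ± 27, and fell by 1.89 (SE 0.38, adjusted p = 0.00275). CDKN1C, which encodes the kinase inhibitor p57, had 923, 1125, 1085 and 1002 against 3824, 3420, 3477 and 4104. It rose by 1.83 (SE 0.08, adjusted p = 8.21e-09), and 4 of its 5 probe sets rose. CDKN1B, encoding p27, rose by 0.33 (adjusted p = 0.00816), a call lost after median centring, without a variance trend and without the 2 arrays of high actin ratio.

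Replication and mitosis genes showed no common direction at this time. DNA replication had 10 of 43 genes higher and 5 lower (median 0.10), and after median centring 0 higher and 9 lower. Mitosis genes had 4 of 40 higher and 8 lower (median -0.02), and after median centring 1 and 15. CEP55, a scaffold of the final cut between daughter cells, was lowest at -1.22 (SE 0.14, adjusted p = 3.82e-05), and NUSAP1, a spindle protein, highest at 0.80 (SE 0.07, adjusted p = 2.68e-06). MKI67, the proliferation marker, fell by 1.03 at its brightest probe set, but 2 of its 4 probe sets rose, and their mean differed by 0.17 and was not called. CDK1 (-0.05), CCNB1 (-0.08) and CCNA2 (-0.03) were not called.

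Among genes that set survival, falls and rises were both found. CFLAR, which encodes the caspase-8 inhibitor FLIP, fell from 2190 ± 248 to 618 ± 53, by 1.80 (SE 0.09, adjusted p = 2.95e-08), though 3 of its 11 probe sets passed. TNFRSF10B, a death receptor for TRAIL, fell by 1.42 (SE 0.19, adjusted p = 0.000137) at 1 of its 3 probe sets. BID, a death gene cut by caspases, fell by 0.81 (SE 0.09, adjusted p = 1.82e-05), and BNIP3L, a mitochondrial receptor used to clear mitochondria from maturing red cells, rose by 0.68 (SE 0.09, adjusted p = 0.000105). In the BCL2 family 5 of 18 fell (27.8%) and 3 rose (16.7%), against 11.7% and 14.4% of all genes. After median centring 6 of the family fell and 1 rose. BCL2 fell by 1.48 at 1 of its 4 probe sets, a call lost when they were averaged. BAX (0.08) and BAD (0.57) were not called.

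Red cell genes rose with imatinib. The globin group, with the globin chaperone AHSP, had all 6 measured genes higher, of 11 listed, and a median of 2.58. The 6 were HBB, HBD, HBE1, HBZ, HBQ1 and AHSP, so the genes of gamma-globin and alpha-globin are not part of these values. The adult-type genes started low. HBD, delta-globin, had signals of 823, 1038, 841 and 1156 with DMSO and 10499, 9573, 9887 and 10669 with imatinib, and HBB, beta-globin, had 588, 484, 572 and 762 against 5856, 5992, 6548 and 6607. They rose by 3.39 (SE 0.10, adjusted p = 5.23e-10) and 3.36 (SE 0.11, adjusted p = 1e-09). Probe sets of near-identical globins can share signal, so each value may hold some of its neighbour's. AHSP, the chaperone of free alpha-globin, rose by 3.00 (SE 0.25) from 66.8 ± 26.4 to 621 ± 66.9. The embryonic genes, bright from the start, rose less on this scale: HBZ by 1.18 (SE 0.08) to 23583 ± 1682 and HBE1 by 0.92 (SE 0.10) to 20054 ± 1216.

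Of the red cell membrane and blood group genes, 17 of 27 rose and 2 fell (median 0.75), and after median centring 15 rose and 2 fell. Heme synthesis had 8 of 11 higher and 2 lower (median 0.93), the same counts after median centring. Stretches before 3 of these genes are shown because they carry the GATA motif AGATAA (capitals, either strand) and had large rises: ALAS2 at chrX:55031073-55031130 (minus strand), PPOX at chr1:161166557-161166614 (plus) and KEL at chr7:142962394-142962451 (minus), all in GRCh38.p14 from RefSeq.
ALAS2: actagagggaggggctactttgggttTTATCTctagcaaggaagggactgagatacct
PPOX: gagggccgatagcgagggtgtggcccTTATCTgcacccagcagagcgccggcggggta
KEL: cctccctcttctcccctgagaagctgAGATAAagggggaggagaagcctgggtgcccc
The motif lay in the window of 3 of 9 heme genes and 5 of 22 membrane genes, and of 11.1% of all genes. Among called members it lay in 3 of 8 heme genes and 3 of 15 membrane genes. The KLF-type motif CCNCNCCC lay in 7 of 9 heme genes and 20 of 22 membrane genes, and in 56.4% of all genes.

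ALAS2, the red cell form of the enzyme that begins heme synthesis, had signals of 223, 303, 230 and 173 with DMSO and 5082, 4218, 5823 and 6074 with imatinib. ALAS1, which performs the same step in other tissues, had 565, 522, 453 and 507 against 308, 249, 391 and 286. The first rose by 4.43 (SE 0.15, adjusted p = 1.05e-09), the largest rise of any gene, and the second fell by 0.72 (SE 0.14, adjusted p = 0.0024). Every later enzyme with a probe set of its own rose: ALAD by 1.35, UROS by 0.93, UROD by 0.71, CPOX by 0.88, PPOX by 1.87 and FECH, which inserts the iron, by 1.54. SLC25A37, the mitochondrial iron importer mitoferrin, rose by 2.69 (SE 0.11, adjusted p = 2.88e-09) at all 3 probe sets, and SLC25A38, the glycine importer, differed by 0.22 and was not called. TSPO, a mitochondrial membrane protein, fell by 0.62 (SE 0.09).

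**Figure D4:**
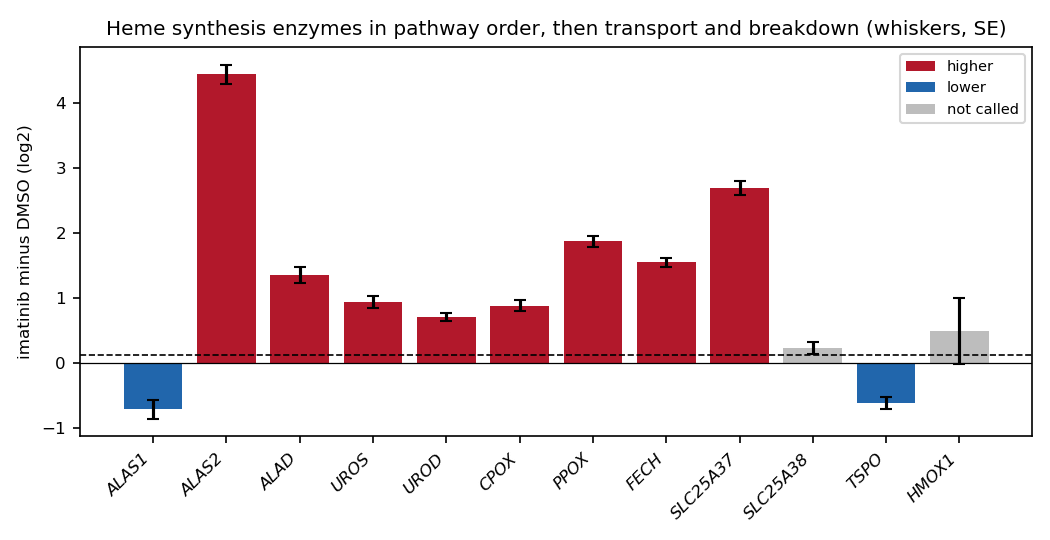
Bars give the difference, imatinib minus DMSO (log2(signal + 16)), of the heme synthesis enzymes in the order of the pathway, then of carriers, TSPO and the breakdown enzyme HMOX1; whiskers are SE, and the dashed line is the median of all genes. ALAS2 stands at 4.43 beside ALAS1 at -0.72, and each enzyme from ALAD to FECH is called higher.

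KEL, the Kell blood group protein, had signals of 267, 293, 279 and 312 with DMSO and 2084, 2105, 2270 and 2784 with imatinib, a rise of 2.93 (SE 0.10, adjusted p = 1.21e-09). SLC4A1, the band 3 anion exchanger, had 149, 166, 142 and 144 against 1371, 1052, 1300 and 1171, a rise of 2.89 (SE 0.11, adjusted p = 2.76e-09). RHD, the Rh D antigen, rose by 2.21, ADD2, a spectrin-binding adducin, by 2.10 and ERMAP, the Scianna antigen, by 2.06. Other genes of the membrane skeleton that rose were ANK1, encoding ankyrin (1.44, at all 6 probe sets), TMOD1, encoding tropomodulin (1.24), DMTN, encoding dematin (0.81), and ADD1, another adducin (0.62). SPTB (0.44), EPB41 (0.36) and EPB42 (0.45) were not called. AQP3, the aquaporin that also carries glycerol, was the largest of the 2 falls, from 3752 ± 149 to 1567 ± 101.

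Iron handling and heme breakdown rose in 8 of 18 genes and fell in 0 (1 at an unadjusted p under 0.05), and after median centring rose in 4 and fell in 2. BLVRB, biliverdin reductase B, rose by 1.86 (SE 0.07, adjusted p = 2.17e-09) to 12426 ± 727, and TFR2, the second transferrin receptor, by 1.21 (SE 0.11). TFRC, the main receptor, differed by 0.22 and was not called (adjusted p = 0.0773), and its arrays overlapped. Late red cell genes rose in 17 of 25 and fell in 1 (median 0.71), and among them SELENBP1 rose by 1.82, BPGM, which makes the allosteric effector of haemoglobin, by 1.66 and TRIM58, a ubiquitin ligase of late erythroblasts, by 1.52.

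Of 25 measured erythroid and progenitor transcription factors 8 rose and 3 fell, and 14 were not called. MYB, which keeps progenitors immature, had signals of 4896, 4829, 4842 and 4604 with DMSO and 1147, 1448, 1439 and 1423 with imatinib, a difference of -1.81 (SE 0.08, adjusted p = 5.9e-09). GATA2, also a progenitor factor, fell by 0.86 at its brightest probe set, a call lost when its 3 probe sets were averaged. TAL1 rose by 1.23 (SE 0.07), LMO2 by 1.17 (SE 0.08), KLF1 by 0.99 (SE 0.07) and EPOR, the erythropoietin receptor, by 1.24 (SE 0.12). For TAL1, 2 of its 3 probe sets rose, and the other differed by -0.73 and was not called. GATA1, the master regulator, had a mean signal of 824 ± 85.0 with DMSO and 891 ± 256 with imatinib; its 4 imatinib arrays read 642, 714, 1024 and 1184, and it was not called (adjusted p = 0.803).

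Inhibitors of helix-loop-helix factors changed in opposite directions. ID2 had signals of 97.1, 94.5, 91.7 and 142 with DMSO and 623, 534, 520 and 473 with imatinib, a rise of 2.19 (SE 0.17, adjusted p = 1.23e-06), and ID1 fell by 1.35 (SE 0.16, adjusted p = 4.89e-05). TCF4, an E protein bound by both, rose by 0.92 (SE 0.08) at all 7 of its probe sets. The polycomb methyltransferase EZH2 fell by 0.58 (SE 0.07, adjusted p = 5.98e-05) and its paralogue EZH1 rose by 1.16 (SE 0.12, adjusted p = 1.2e-05).

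The RNA of the glucose transporters SLC2A3 and SLC2A1 changed in opposite directions. SLC2A3, the high-affinity transporter GLUT3, had signals of 2341, 2495, 2237 and 2408 with DMSO and 193, 185, 220 and 159 with imatinib, a difference of -3.55 (SE 0.10, adjusted p = 3.51e-10) at all 3 probe sets. SLC2A1, the red cell transporter GLUT1, had 1026, 1083, 1028 and 1020 against 2459, 2732, 2576 and 2774, a rise of 1.33 (SE 0.06, adjusted p = 1.55e-08) at both probe sets. HK2, hexokinase 2, fell by 2.10 (SE 0.14, adjusted p = 3.04e-07), and HK1 differed by 0.18 and was not called. Of 36 glycolysis, pentose phosphate and citric acid cycle genes 15 fell and 5 rose, or 19 and 2 after median centring and 15 and 8 without the 2 arrays of high actin ratio. PKLR, the pyruvate kinase of liver and red cells, rose by 1.55 (SE 0.14) at all 3 probe sets, and PKM, the form of other tissues, fell by 2.04 (SE 0.25) at 1 of 2 probe sets.

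Lysosome genes rose in 17 of 36 and fell in 5 (median 0.27), but after median centring 8 were higher and 10 lower. CTSL, a lysosomal protease, rose by 1.79 (SE 0.07, adjusted p = 2.17e-09), from 1772 ± 136 to 6150 ± 272, and ASAH1, acid ceramidase, by 1.05 (SE 0.08). CTSH, another protease, fell by 1.59 (SE 0.06, adjusted p = 1.95e-09). Autophagy genes rose in 12 of 29 and fell in 2, or in 6 and 5 after median centring, and ATG14, a subunit of the lipid kinase that starts autophagosomes, rose by 1.31 (SE 0.11). NFE2L2, which encodes the oxidative stress factor NRF2, fell by 1.20, GLRX2, a mitochondrial glutaredoxin, fell by 1.10 and GLRX, the cytosolic form, rose by 1.28.

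Outside the 61 groups, among called genes at or above the 40th percentile of mean level whose arrays did not overlap, the largest rises were those of CLIC3, a chloride channel family member (3.23, SE 0.34), CTSE, an aspartic protease found in red cells (3.14, SE 0.16), PLAAT4, a phospholipase and acyltransferase (3.05, SE 0.31), and NFASC, the adhesion protein neurofascin (3.00, SE 0.31). The largest falls were those of INHBE, an activin subunit gene (-3.13, SE 0.18), TBXA2R, the thromboxane receptor (-3.07, SE 0.22, at 3 of 4 probe sets), and AHR. AHR, the sensor of dioxins and other aromatic compounds, had signals of 744, 665, 750 and 604 with DMSO and 51.5, 68.6, 70.3 and 87.4 with imatinib, a difference of -3.06 (SE 0.17, adjusted p = 6.66e-08). CYP1A1, the best known gene that AHR induces, was dim and rose by 2.04 (SE 0.36, adjusted p = 0.00102), from 37.1 ± 18.2 to 199 ± 65.3, and CYP3A5 rose by 2.65 (SE 0.19) at all 3 probe sets. Both belong to the cytochrome P450 group, 1 of the 61. In it 4 of 19 measured genes rose (21.1%, against 14.4% of all genes) and 0 fell (0 at an unadjusted p under 0.05), or 3 and 0 after median centring. ALOX5, which makes leukotrienes, had 462, 528, 433 and 355 against 2914, 3216, 3186 and 2805, a rise of 2.74 (SE 0.11, adjusted p = 2.37e-09). ALOX12, the platelet lipoxygenase, rose by 2.69 (SE 0.27).

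Drug carriers and surface proteins also changed. ABCG2, an efflux pump that transports imatinib, rose by 0.99 (SE 0.11, adjusted p = 3.48e-05), from 461 ± 68.3 to 930 ± 78.0, and ABCB6, which carries the Langereis blood group, by 1.90 (SE 0.19). ABCB1, the multidrug pump P-glycoprotein, was dim in both groups and differed by -0.17 (adjusted p = 0.817). VIM, the intermediate filament vimentin that maturing red cells lose, fell from 13764 ± 852 to 6883 ± 526, by 1.0 (SE 0.07, adjusted p = 7.57e-07). CD82, a tetraspanin, rose by 1.71 (SE 0.36, adjusted p = 0.00383) from a dim 37.1 ± 23.9. Among interferon and HLA class I genes 10 of 39 rose and 2 fell, or 6 and 5 after median centring. Housekeeping genes had 2 of 12 higher and 0 lower (1 at an unadjusted p under 0.05), a median of 0.00 and, after median centring, 0 higher and 4 lower.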

How the data were processed

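The authors deposited array intensity values, linear signals computed with MAS5 (per the submitters' processing notes), whose version is not given in the sources used here. Trimmed of 2% at each end, every array had a mean near 500, so a common scaling preceded deposit. Values were used as deposited, as log2(signal + 16), with no filter. Of 22277 probe sets 62 controls were left out; 19064 of the rest named 1 gene, 1043 several and 2108 none. Groups came from sample titles. limma 3.58.1 in R 4.3.3 was fitted to the 4 imatinib and 4 DMSO arrays with a variance trend, p-values were adjusted over 22215 probe sets, and the method was tested on simulated data. Exact permutation tests of array measures were two-sided (scipy 1.17.1), and figures were drawn with matplotlib 3.10.9.

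The comparison, the 61 gene groups (1294 of 1490 genes measured) and the naming rules were chosen with earlier results of these data known. The rules named up to 6 called members of each group whose arrays did not overlap, the 15 largest changes in each direction, a set of pathway genes, and uncalled members. CEBPG, BCAT1, OAT, AQP3, ANK1, TMOD1, DMTN, ADD1, ALAS1, UROD, CPOX, TSPO, EIF2AK1, EIF2AK2 and MTHFD1 were added after their values were seen. Probe sets were named by the platform annotation, and promoter windows came from the RefSeq table (GRCh38.p14, 35116 windows of 27305 genes). Detection calls were not used here, and the study's other drug was used only in an alternative fit.

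Alternatives tried were added constants of 1 and 64, filters at the 40th and 60th percentile, quantile normalization, median centring, cyclic loess, other variance models, array weights, all 12 arrays, averaging the probe sets of each gene, each array left out, and the 2 arrays of high actin ratio left out.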

Additional observations from a re-analysis of the deposited data

Results flagged for a closer look

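In groups of 4 arrays, the highest or lowest array stood apart in 4 of 140 groups examined, where chance gives about 1 in 20. The measure is the gap to the nearest array divided by the group's range, set against Dixon's critical value for 4 arrays. BCR on the DMSO arrays had 0.831: replicate 12 read 320 and the others 256 to 266. MYB on the imatinib arrays had 0.918: replicate 5 read 1147 and the others 1423 to 1448, all far below the DMSO arrays. CD44 on the DMSO arrays had 0.831: replicate 9 read 240 and the others 201 to 207. RRP12, a ribosome processing gene, had 0.890 on the imatinib arrays, where replicate 8 read 53.3 and the others 23.2 to 26.5. It fell by 2.92 from 340 ± 53.9 with DMSO, at 1 of its 3 probe sets.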

How the results depend on the processing

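Median centring of the arrays moved the counts most: 1261 probe sets were higher and 3656 lower, and 775 genes were higher and 2309 lower. Leaving out each array in turn gave 1412 to 1632 genes higher and 1210 to 1373 lower. No other alternative moved these counts over all probe sets or all genes by over 1.5 times, though small counts within gene groups moved more (respiratory chain genes higher, 5 to 10 with quantile normalization). Among genes named by the rules, averaging the probe sets of each gene turned SPRED2 to 0.032, MKI67 to 0.165 and POLR2A to -0.012, none of them called there. The same averaging also turned the sign of EIF3F, ITGB1, PSMB2, RANBP1 and VARS1, other called members of the gene groups, and none of these was called there. Of 600 called genes that were in the gene groups or named by the rules, 356 were called under every alternative that tested them. The sign was opposite under at least 1 alternative in 13 of the 600. No paired analysis was possible because the groups share no replicate number. Dim genes limit the precision: 3978 genes lay below the 40th percentile of signal (71.5), and 166 of them were called higher and 35 lower.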
